A study of Mus musculus with 12 samples.

Results

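The genes described here are 9 surface or membrane protein genes best known from leukocytes, Siglecf, Cd300lf, Cd72, Cd79b, Tnfrsf8, Cd37, Ly6g6f, Tmem176a and Tmem176b, in tuft cells of 2 mouse organs. They were taken by symbol, as 9 of the 43432 genes in the deposited table of read counts, and all 9 passed the filter on low counts. They were chosen by their measured levels in IL-25+ against IL-25- cells of these same libraries, so their differences between IL-25+ and IL-25- cells are given as a description, with no p-value, and the numbers of them past the threshold of the fit support nothing. Tests of whether this difference differs between the organs use the same values, so their p-values are not independent of the choice. Epithelium came from Flare25 mice, whose Il25-transcribing cells carry a red fluorescent protein. From the proximal small intestine (SI) and the gallbladder (GB), live single EpCAM+ cells with the reporter signal (IL-25+) and without it (IL-25-) were collected, with 3 libraries for each of the 4 groups. All 4 groups carry the same reporter, and mouse age and sex are not given in the sources used here. For the 6 gallbladder libraries the labels add house dust mite allergen coupled to a fluorescent dye, given 1 day before collection, while the treatment field of all 12 libraries reads homeostasis. The organ and this treatment therefore cannot be told apart in any comparison of gallbladder with small intestine. Nothing in the labels says whether replicates came from separate mice or from pools, so p-values measure the spread between these libraries, which may be technical.

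Tuft cells are rare epithelial chemosensory cells that release IL-25 and lipid mediators and thereby act on innate lymphoid cells. They share with blood cells a set of receptors and signalling proteins. Many leukocyte receptors carry in their tails tyrosine motifs that are phosphorylated by Src-family kinases such as Lyn. Inhibitory motifs then recruit phosphatases such as Ptpn6 (SHP-1) and Inpp5d (SHIP-1), whereas activating motifs recruit kinases such as Syk.

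The libraries held 23703449 to 64736650 counts, with 7.14 to 34.9% of them from mitochondrial genes. This share differed between the groups, with 12.1 to 17.2% in SI IL-25+ and 26.6 to 34.9% in SI IL-25- libraries. It was 7.14 to 8.83% in GB IL-25+ and 11.2 to 25% in GB IL-25- libraries. Its part in the comparisons was not tested. Values below are read counts relative to library size (CPM) scaled by edgeR's TMM factors. Il25 averaged 13.0 ± 6.06 CPM in SI IL-25+ (SD, n = 3) and 0.0281 ± 0.0258 CPM in SI IL-25-, and 8.44 ± 3.11 CPM in GB IL-25+ and 0.234 ± 0.381 CPM in GB IL-25-. All 8 tuft markers examined, among them Pou2f3, Dclk1 and Trpm5, were higher in IL-25+ cells of both organs. The 4 epithelial markers summed to 2672 to 17484 CPM in the 12 libraries. The 8 T cell markers summed to 5.10 to 22.6 CPM in SI IL-25+, 1.34 to 18.4 CPM in SI IL-25-, at most 1.56 CPM in GB IL-25+ and at most 0.519 CPM in GB IL-25- cells. Mast cell and basophil markers reached 0.501 CPM, neutrophil markers 3.38 CPM and stromal and endothelial markers 1.80 CPM at most. GB IL-25- 1 stood apart. It held 48 of the 49 Il25 counts of its group, and 15 genes typical of intestinal absorptive cells stood there at a median of 5.42% of their level in SI IL-25- 3, against at most 0.136% in the other gallbladder libraries. In bulk RNA, fewer cells of a type and less RNA per cell cannot be told apart.

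Siglecf, Cd300lf, Ly6g6f, Tmem176a and Tmem176b were abundant in IL-25+ cells of both organs and had their highest mean in the small intestine. Cd72 and Cd79b were found in gallbladder IL-25+ cells and were near the detection limit in small intestinal ones. Tnfrsf8 was present in IL-25+ cells of both organs and had its highest mean in the gallbladder, and Cd37 was low in both. In gallbladder epithelium Tmem176a and Tmem176b were also well expressed outside the IL-25+ gate. Between IL-25+ and IL-25- cells, 6 of the 9 genes were past the threshold as higher in the small intestine, where 14.5% of all tested genes were called higher and 27.2% in either direction. In the gallbladder 9 of 9 were past it as higher, beside 12.4% of all genes called higher and 26.8% in either direction. Since this contrast chose the genes, nothing is read from these counts. Their median log2 difference was 4.60 in the small intestine and 7.80 in the gallbladder, and the median of all tested genes was -0.07 and -0.15. Of the 6 small intestinal calls, that of Cd37 was lost when any of 5 libraries was left out (SI IL-25+ 1, 2 or 3, or SI IL-25- 1 or 2), with 5 or 6 genes then called.

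**Figure D1:**
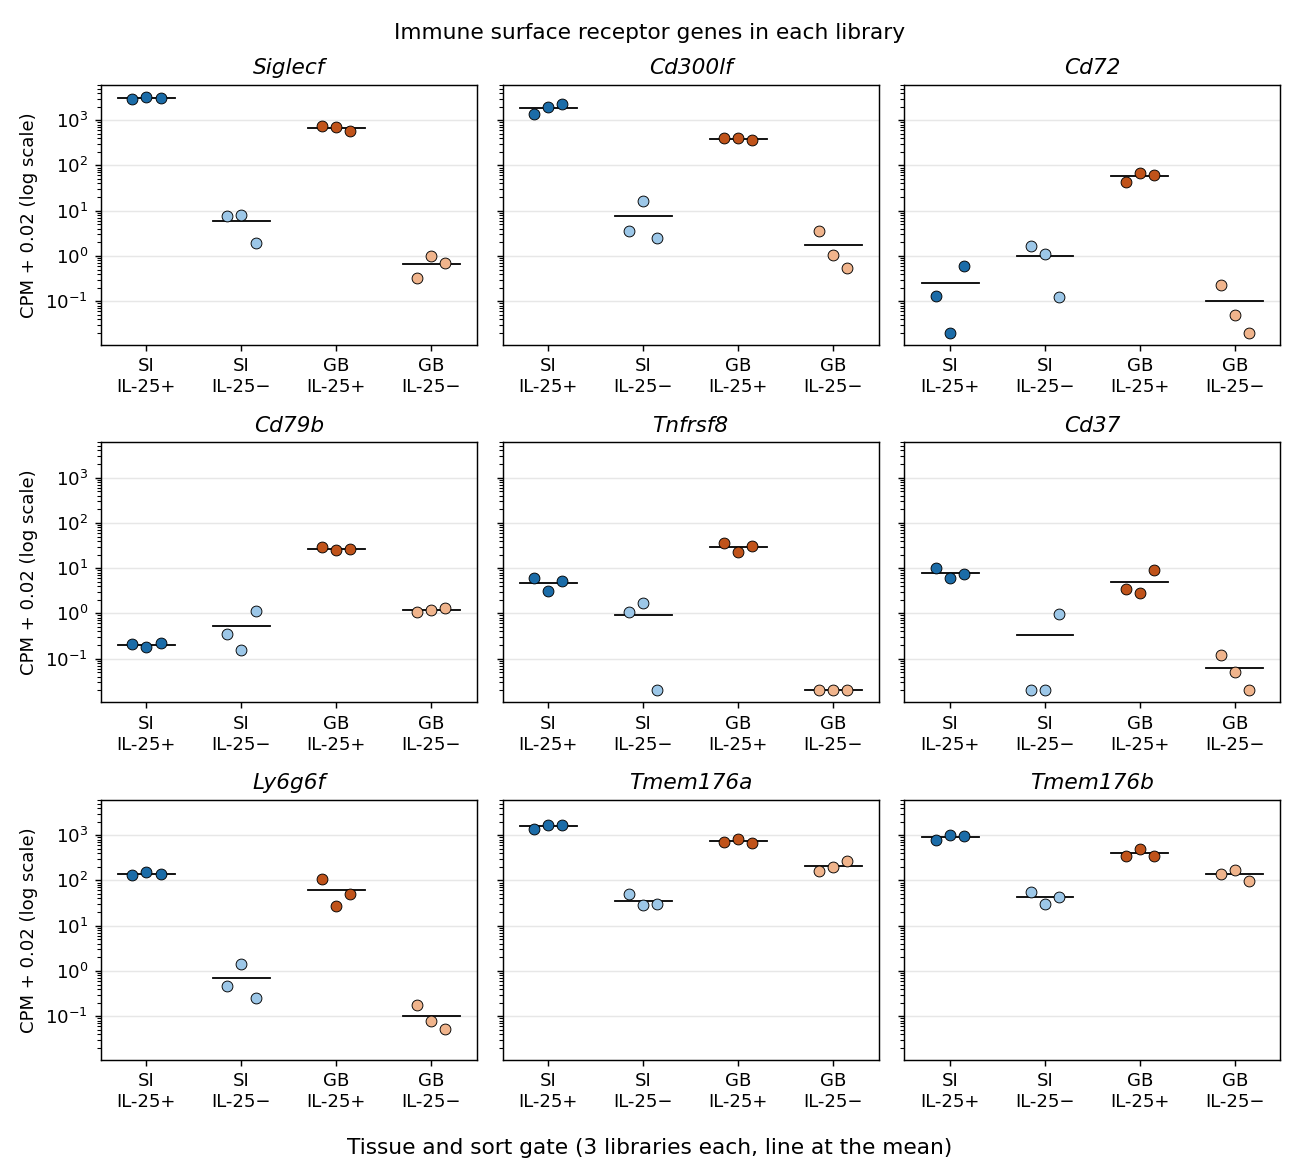
Level of each gene in the 12 libraries, as CPM plus 0.02 on a log axis, with 1 point per library and a line at the mean of the 3 libraries of a group. Cd72 stands between 42.1 and 67.2 CPM in the 3 GB IL-25+ libraries and at most 1.66 CPM in the other 9, while Siglecf is at least 578 CPM in all 6 IL-25+ libraries.

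Comparing genes needs values per length of transcript, and on the scale of CPM per kilobase of exon Siglecf was the highest of the 9 genes in both organs. In SI IL-25+ cells it averaged 1108 ± 66.9 CPM per kb (SD, n = 3), followed by Tmem176a at 414 ± 52.7, Tmem176b at 382 ± 45.3, Cd300lf at 363 ± 83.2 and Ly6g6f at 124 ± 9.59 CPM per kb. The levels of Cd37, 2.21 CPM per kb, and Tnfrsf8, 1.36 CPM per kb, were far lower, and those of Cd79b and Cd72 were 0.129 and 0.0663 CPM per kb. In GB IL-25+ cells Siglecf stood at 245 ± 32.7, Tmem176a at 194 ± 20.7, Tmem176b at 170 ± 35.4, Cd300lf at 76.1 ± 5.94 and Ly6g6f at 53.0 ± 35.3 CPM per kb. Cd79b and Cd72 came next there, at 18.9 ± 1.22 and 16.7 ± 3.90 CPM per kb, above Tnfrsf8 at 8.71 ± 1.92 and Cd37 at 1.43 ± 0.950 CPM per kb.

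Siglecf (ENSMUSG00000039013, chromosome 7, 43351341 to 43359531 in GRCm38, as for all positions here) encodes an inhibitory lectin that binds sialic acids and is best known from eosinophils. It was read at 2942, 3299.9 and 3029.8 CPM in SI IL-25+ 1 to 3 and at 745, 725 and 578 CPM in GB IL-25+ 1 to 3. The IL-25- libraries held 7.57, 8.04 and 1.93 CPM in the small intestine and 0.309, 0.975 and 0.682 CPM in the gallbladder. The 4 groups did not overlap, in the order SI IL-25+, GB IL-25+, SI IL-25-, GB IL-25-. The log2 difference between IL-25+ and IL-25- was 9.05 ± 0.62 (SE) in the small intestine and 10.07 ± 0.66 in the gallbladder. Between IL-25+ cells, Siglecf was lower in the gallbladder by a log2 difference of -2.18 ± 0.46 (adjusted p = 0.00471), and between IL-25- cells by -3.20 ± 0.51 (adjusted p = 0.000809). The IL-25- libraries held 0.06245 to 0.26% of its IL-25+ mean in the small intestine and 0.0452 to 0.143% in the gallbladder. There 8 tuft markers summed stood at 0.251 to 0.712% and 0.134 to 0.701% of theirs. The part of tuft cells left in the IL-25- gate in this difference was not tested. The eosinophil genes Epx, Prg2, Ccr3 and Ear2 were at 0 counts in all 3 SI IL-25+ libraries, where 5 eosinophil markers summed to at most 0.0405 CPM. In GB IL-25+ cells Epx, Prg2 and Ear2 were at 0 and the 5 markers summed to at most 2.02 CPM. They summed to 0 to 11.1 CPM in SI IL-25- libraries, with 332 Ccr3 counts in a single library, and to 0.118 to 0.487 CPM in GB IL-25-. Their part in the Siglecf levels of IL-25- cells was not tested.

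Cd300lf (ENSMUSG00000047798, chromosome 11, 115116214 to 115133992) encodes an immunoglobulin-type receptor for lipids that carries inhibitory motifs and serves as the entry receptor of murine norovirus. SI IL-25+ 1 to 3 held 1405, 1951 and 2249 CPM and GB IL-25+ 1 to 3 held 414, 405 and 357 CPM. In IL-25- cells it was read at 3.56, 16.5 and 2.51 CPM in the small intestine and at 3.58, 1.00 and 0.520 CPM in the gallbladder, and these groups overlapped. The IL-25+ and IL-25- groups did not overlap in either organ, with log2 differences of 7.96 ± 0.99 in the small intestine and 7.80 ± 0.98 in the gallbladder. The first is 9.26 without SI IL-25- 2 and the second 8.97 without GB IL-25- 1, the libraries with the most Cd300lf in their groups. All 3 GB IL-25+ libraries were below all 3 SI IL-25+ ones, yet the log2 difference of -2.25 ± 0.76 missed the threshold (adjusted p = 0.0569), with an interval of 2 SE from -3.77 to -0.73. It passed with DESeq2 (adjusted p = 0.0155), with the stricter filter (0.0411), in a fit of these 6 libraries alone (2.63e-05) and when any of 4 IL-25- libraries was left out (0.0142 to 0.0442). Per kilobase, Siglecf stood above Cd300lf by a ratio of 3.16 ± 0.690 in SI IL-25+ and 3.20 ± 0.188 in GB IL-25+ libraries (SD, n = 3).

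Cd72 (ENSMUSG00000028459, chromosome 4, 43446462 to 43454628) encodes an inhibitory C-type lectin of B cells that recruits Ptpn6 and binds Sema4d. GB IL-25+ 1 to 3 held 42.1, 67.2 and 62.4 CPM, from 1449, 1811 and 2318 counts. SI IL-25+ 1 to 3 held 3, 0 and 14 counts, SI IL-25- 1 to 3 held 56, 33 and 4, and GB IL-25- 1 to 3 held 15, 1 and 0 counts. Only the GB IL-25+ libraries stood clear of the other 9, while each of the other 3 groups overlapped its neighbour in the order of means. Between IL-25+ cells, Cd72 was higher in the gallbladder by a log2 difference of 7.97 ± 1.31 (adjusted p = 0.00107), which becomes 9.87 without SI IL-25+ 3, the library with 14 of the 17 counts of its group. The log2 difference between IL-25+ and IL-25- was -2.06 ± 1.12 in the small intestine, with -3.95 without SI IL-25+ 3, -1.48 without SI IL-25+ 2 and -1.37 without SI IL-25- 1. In the gallbladder it was 9.14 ± 1.37, or 11.51 without GB IL-25- 1. The test of the difference between these differences gave 11.20 ± 1.72 (adjusted p = 0.00178), 10.50 to 13.57 when any single library was left out. It uses the values by which the gene was chosen. Cd72 overlaps Tesk1, a kinase gene on the opposite strand, over 1423 exon bases, and the library kit does not mark strand. Tesk1 averaged 79.2 ± 18.5 CPM in GB IL-25+ and 24.8 to 28.8 CPM in the other groups, and SI IL-25+ 2 held 543 counts of Tesk1 and 0 of Cd72.

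Cd79b (ENSMUSG00000040592, chromosome 11, 106311341 to 106314762) encodes the beta signalling chain of the B cell receptor, which works in a pair with the chain encoded by Cd79a. It was read at 29.0, 25.7 and 26.5 CPM in GB IL-25+ 1 to 3 and at 1.07, 1.18 and 1.30 CPM in GB IL-25- 1 to 3. SI IL-25+ 1 to 3 held 0.189, 0.160 and 0.203 CPM and SI IL-25- 1 to 3 held 0.326, 0.133 and 1.09 CPM, which overlap. Between IL-25+ cells the gallbladder was higher by 7.17 ± 0.79 on the log2 scale (adjusted p = 3.99e-05). Gate differences were 4.51 ± 0.68 in the gallbladder and -1.49 ± 0.67 in the small intestine. The latter was -0.33 without SI IL-25- 3, which held 43 of the 58 counts of its group, and it was past the threshold with DESeq2 and, at -1.93, without SI IL-25- 2. The gate differences differed from each other by 6.0 ± 0.94 (adjusted p = 0.00154), or by 4.83 without SI IL-25- 3. The IL-25- libraries of the gallbladder held 3.94 to 4.80% of the IL-25+ mean of Cd79b, and 8 tuft markers summed stood there at 0.134 to 0.701% of theirs. Single tuft markers varied around this sum. Dclk1 averaged 12.7 CPM in GB IL-25- against 7308 CPM in GB IL-25+, and Gnat3 4.31 against 22.6 CPM. Il25 stood in GB IL-25- libraries at 0 to 7.98% of its IL-25+ mean.

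The partners of both B cell genes were looked at by a list of 17 genes of the B cell receptor and its co-receptors, of which 9 were tested. Cd79a, Ms4a1 and Pax5, all defining B cell genes, had 0 counts in all 3 GB IL-25+ libraries, where 3 counts over the group correspond to 0.0304 CPM. Other genes of the list were not at 0 there. Ebf1 held 1 to 414 counts per library in GB IL-25+ (6.63 ± 6.09 CPM) and averaged 2.42 ± 1.44 CPM in GB IL-25- cells. Cr2 held 16 counts over the GB IL-25+ group. Ighm, the heavy chain of IgM, had 325 counts in a single GB IL-25+ library and 0 in the other two, and the 8 B and plasma cell markers summed to 0 to 12.1 CPM in this group. In the gate comparison of the gallbladder 2 of the 9 were higher, 3 were lower and 4 did not pass, with a median log2 difference of -1.23. The 3 lower genes were Cd81, Syk and Sema4d. For Syk, a kinase recruited by activating motifs, the log2 difference ran from -8.69 to -3.54 over 19 alternatives, and 3 of them lost the call. For Sema4d it ran from -1.64 to -1.01, and 5 of 19 alternatives lost the call. The 2 higher genes were Blnk and Lyn. Blnk, an adaptor downstream of the receptor, rose by 2.59 ± 0.20 in the gallbladder (adjusted p = 1.74e-06) and by 1.21 ± 0.20 in the small intestine (adjusted p = 0.00056). Its level reached 596 ± 53.2 CPM in GB IL-25+ and 220 ± 24.9 CPM in SI IL-25+ cells. Lyn, the kinase that phosphorylates these receptors, rose by 2.44 ± 0.24 in the gallbladder (adjusted p = 8.99e-06) and by 2.78 ± 0.24 in the small intestine (adjusted p = 3.62e-06). In the small intestine 2 of the 9 were higher and 1 was lower. That gene was Sema4d, the ligand of CD72, with a log2 difference of -1.83 ± 0.43 (adjusted p = 0.00693).

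**Figure D2:**
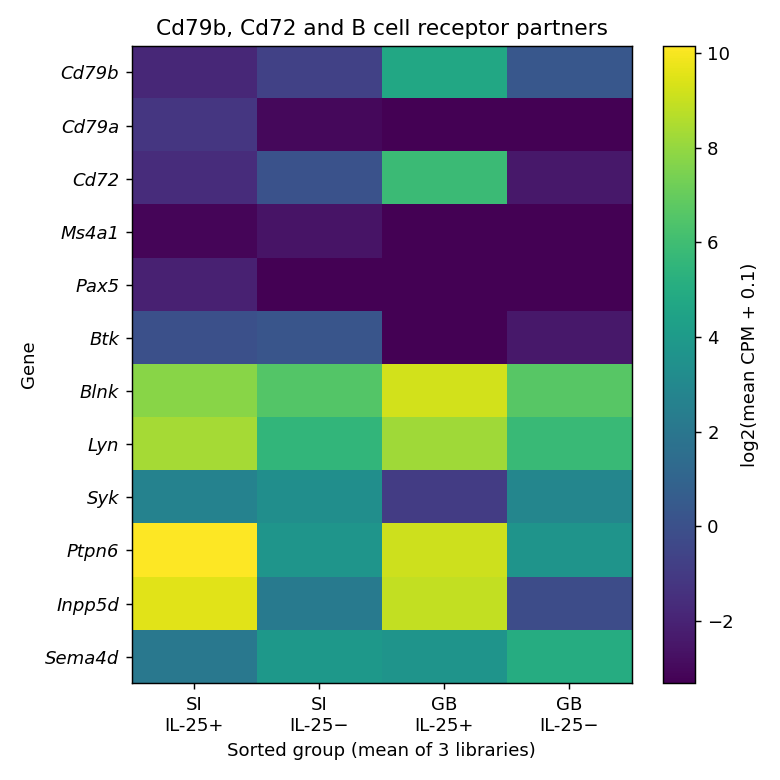
Mean level of Cd79b, Cd72 and genes of B cell receptor signalling in the 4 groups, coloured by log2 of the mean CPM of 3 libraries plus 0.1. In the GB IL-25+ column Cd79b (27.1 CPM) and Cd72 (57.2 CPM) stand beside Cd79a, Ms4a1 and Pax5 at 0, and beside Blnk (596 CPM) and Lyn (302 CPM). Ebf1, at 6.63 CPM in GB IL-25+, is not drawn.

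Tnfrsf8 (ENSMUSG00000028602, chromosome 4, 145267137 to 145315164) encodes CD30, a TNF receptor family member of activated lymphocytes. GB IL-25+ 1 to 3 held 36.3, 23.1 and 31.0 CPM, and SI IL-25+ 1 to 3 held 5.999, 3.09 and 5.07 CPM. In IL-25- cells the small intestine held 35, 50 and 0 counts and the gallbladder 0 counts in all 3 libraries. The IL-25+ groups did not overlap, but their log2 difference of 2.67 ± 1.00 missed the threshold (adjusted p = 0.0769), with an interval of 2 SE from 0.67 to 4.68. It passed with DESeq2 (adjusted p = 0.0252), in a fit of these 6 libraries alone (0.000485) and without SI IL-25- 3 (0.00293), and missed it in the other alternatives that leave out at most 1 library. In the gallbladder IL-25+ cells were at least 1390-fold higher than IL-25- cells, from counts summed over each group and with 3 counts over the group as the floor. In the small intestine the log2 difference was 2.39 ± 1.01. It was 3.19 without SI IL-25- 2 and 1.80 without SI IL-25- 3, where it was past the threshold. The test of the difference between the organs passed (adjusted p = 0.0077), but its fitted size of 10.63, or 9.85 without SI IL-25- 2, rests on a group without counts. Between IL-25- cells Tnfrsf8 was at least 37.4-fold lower in the gallbladder by the same floor (adjusted p = 0.00713), though SI IL-25- 3 was also at 0. The gene of its ligand, Tnfsf8, was at 0 in 3 groups and at 0.0890 ± 0.121 CPM in SI IL-25+ cells. Of 8 tested genes of its ligand and adaptors, 1 was lower in the small intestinal gate comparison and 0 passed in the gallbladder. That gene was Nfkb1, with a log2 difference of -1.07 ± 0.33 (adjusted p = 0.0308, at most 0.127 over the alternatives).

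Of 19 other tested TNF receptor family genes, 2 were higher and 2 lower in the gate comparison of the small intestine, with a median log2 difference of 0.02. In the gallbladder 3 were higher and 6 lower, with a median of -1.16. Tnfrsf21, a death receptor, fell in both organs, with log2 differences of -3.78 ± 0.34 in the small intestine (adjusted p = 4.88e-06) and -3.64 ± 0.33 in the gallbladder (adjusted p = 5.55e-06). Tnfrsf10b, a TRAIL receptor, fell by 4.27 ± 0.45 in the gallbladder (adjusted p = 1.65e-05), with 3.27 ± 0.839 CPM inside and 62.9 ± 22.5 CPM outside the IL-25+ gate. In the small intestine its difference was 0.49 ± 0.39 (adjusted p = 0.384).

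Cd37 (ENSMUSG00000030798, chromosome 7, 45233632 to 45239115) encodes a tetraspanin of mature B cells and other leukocytes. SI IL-25+ 1 to 3 held 264, 148 and 185 counts (7.80 ± 2.03 CPM) and GB IL-25+ 1 to 3 held 117, 76 and 330 counts (5.03 ± 3.35 CPM), and the groups overlapped. In IL-25- cells there were 0, 0 and 37 counts in the small intestine and 7, 1 and 0 in the gallbladder. Between IL-25+ cells the log2 difference of -0.63 ± 1.29 did not pass (adjusted p = 0.77), and its interval of 2 SE from -3.21 to 1.95 is wide. The difference from IL-25- cells was 4.60 ± 1.51 in the small intestine and 6.59 ± 1.69 in the gallbladder. Leaving out SI IL-25- 3, the only library of its group with counts, makes the first 11.03, a value fitted against a group at 0. The second becomes 8.02 without GB IL-25- 1 and 5.89 without GB IL-25+ 3. Cd37 shares 13 exon bases with Tead2 on the opposite strand.

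Other tetraspanins moved in both directions. Of 25 tested, 5 were higher and 4 lower in the gate comparison of the small intestine, and 6 were higher and 12 lower in the gallbladder, with medians of -0.41 and -1.23. Tspan6 was higher in IL-25+ cells by 6.79 ± 0.96 in the small intestine (adjusted p = 0.000566), or 8.37 without SI IL-25- 2, and by 3.99 ± 0.84 in the gallbladder (adjusted p = 0.00597), while DESeq2 gave no adjusted p for it. Tspan8 rose by 2.55 ± 0.24 in the small intestine (adjusted p = 6.21e-06). It stood at 804 ± 43.3 CPM in GB IL-25+ and at 764 ± 255 CPM in GB IL-25- cells, a difference of 0.07 ± 0.22 (adjusted p = 0.843). Tspan13 rose by 4.30 ± 0.42 in the gallbladder (adjusted p = 8.52e-06) and Tspan1 by 1.71 ± 0.23 (adjusted p = 0.000157). Tspan13 was also called higher in SI IL-25+ cells, by 0.91 to 1.45 over the alternatives, a call lost in 9 of 19 of them. Cd9, which is widely expressed in epithelia, fell in both organs, with log2 differences of -2.46 ± 0.55 in the small intestine (adjusted p = 0.00492), or -3.20 without SI IL-25+ 1, and -3.75 ± 0.57 in the gallbladder (adjusted p = 0.000339). Cd81, a widely expressed tetraspanin, fell by 1.23 ± 0.16 in the gallbladder (adjusted p = 9.07e-05).

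Ly6g6f (ENSMUSG00000034923, chromosome 17, 35080480 to 35085610) encodes an immunoglobulin-type receptor known from platelets. SI IL-25+ 1 to 3 held 135, 154 and 135 CPM and GB IL-25+ 1 to 3 held 105, 26.6 and 49.8 CPM. The IL-25- libraries held 0.445, 1.37 and 0.229 CPM in the small intestine and 0.154, 0.0591 and 0.0325 CPM in the gallbladder. None of the 4 groups overlapped. Between IL-25+ cells the log2 difference of -1.23 ± 0.55 missed the threshold (adjusted p = 0.13), but it was -1.86 without GB IL-25+ 1 and then passed (adjusted p = 0.0423). IL-25+ exceeded IL-25- by 7.72 ± 0.75 in the small intestine, or 8.71 without SI IL-25- 2. In the gallbladder the difference was 9.25 ± 0.83, and it was 10.21 without GB IL-25- 1 and 8.59 without GB IL-25+ 1. Between IL-25- cells the gallbladder was lower by a log2 difference of -2.76 ± 0.77 (adjusted p = 0.021), a call lost without SI IL-25- 2 (-1.76, adjusted p = 0.109), GB IL-25- 2 (-2.53, 0.0747) or GB IL-25- 3 (-2.45, 0.0801). Without GB IL-25- 1 it was -3.68, and with no filter on low counts it missed the threshold (adjusted p = 0.0685). Ly6g6f stood in IL-25- libraries at 0.1615 to 0.967% of its IL-25+ mean in the small intestine and 0.0537 to 0.255% in the gallbladder. For 8 tuft markers summed these shares were 0.251 to 0.712% and 0.134 to 0.701%. The part of tuft cells left in the IL-25- gate was not tested here either. The platelet genes Gp9 and Ppbp were at 0 in all 6 IL-25+ libraries, and 5 platelet markers summed to 0.0405 to 1.48 CPM in SI IL-25+ and to 0.0808 to 8.48 CPM in GB IL-25+.

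Ly6g6f lies in a cluster of Ly6 genes in the major histocompatibility region. Ly6g6e lies 1676 bases and Ly6g6d 2415 bases from it, and Mpig6b, which encodes an inhibitory receptor of platelets, 14296 bases. Of 5 tested genes of this cluster, 3 were higher in IL-25+ cells of the small intestine and 2 in those of the gallbladder, with 0 lower in either. Ly6g6d stood at 391 ± 63.7 CPM in SI IL-25+ and 86.6 ± 34.7 CPM in GB IL-25+ cells. It rose by 8.45 ± 0.68 in the small intestine (adjusted p = 3.96e-06), or 9.22 without SI IL-25- 1, and by 5.93 ± 0.61 in the gallbladder (adjusted p = 2.5e-05). Mpig6b rose by 3.41 ± 0.69 in the small intestine (adjusted p = 0.00274). The gene on the other side of Ly6g6f, Abhd16a, which encodes a lipase and is no Ly6 gene, averaged 245 CPM in SI IL-25+ and 29.9 CPM in SI IL-25-, and 101 CPM in GB IL-25+ and 26.1 CPM in GB IL-25- cells. It was looked up for its position after its values were known.

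Tmem176a (ENSMUSG00000023367, chromosome 6, 48840919 to 48847071) and Tmem176b (ENSMUSG00000029810, chromosome 6, 48833818 to 48841496) are neighbours on opposite strands that share 81 exon bases. They encode related membrane proteins of the MS4A type, known from dendritic cells and from lymphocytes that express RORgt. Tmem176a was read at 1347, 1666 and 1717 CPM in SI IL-25+ 1 to 3 and at 724, 822 and 666 CPM in GB IL-25+ 1 to 3. In IL-25- cells it held 48.98, 28.3 and 29.5 CPM in the small intestine but 160.3, 199.8 and 262 CPM in the gallbladder. Tmem176b followed the same order, with 786, 992 and 939.8 CPM in SI IL-25+, 355, 499.5 and 353 CPM in GB IL-25+, 137, 171 and 97.9 CPM in GB IL-25- and 56.1, 30.7 and 42.5 CPM in SI IL-25-. For both genes the 4 groups did not overlap.

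Between IL-25+ cells, both were lower in the gallbladder, Tmem176a by a log2 difference of -1.10 ± 0.24 (adjusted p = 0.00521) and Tmem176b by -1.17 ± 0.26 (adjusted p = 0.00514). Between IL-25- cells, both were higher in the gallbladder, by 2.54 ± 0.25 (adjusted p = 1.75e-05) and 1.65 ± 0.26 (adjusted p = 0.000559). The gate difference of Tmem176a was 5.47 ± 0.29 in the small intestine and 1.83 ± 0.24 in the gallbladder. The gallbladder value differed from the small intestinal one by -3.64 ± 0.35 (adjusted p = 5.8e-05). Tmem176b had gate differences of 4.39 ± 0.29 and 1.57 ± 0.26, which differed by -2.82 ± 0.36 (adjusted p = 0.000405). GB IL-25- libraries held 21.7 to 35.6% of the IL-25+ mean of Tmem176a and 24.3 to 42.5% of that of Tmem176b, against 0.134 to 0.701% for the summed tuft markers. Of the single markers, Gnat3 averaged 4.31 CPM in GB IL-25- and 22.6 CPM in GB IL-25+ cells, and Dclk1 12.7 and 7308 CPM. The sum of 8 myeloid markers was also higher in the GB IL-25- libraries, at 53.7 to 232 CPM. It was 6.38 to 25.1 CPM in GB IL-25+, 12.9 to 43.2 CPM in SI IL-25- and 26.1 to 29.3 CPM in SI IL-25+ cells. In GB IL-25- libraries Itgam ranged from 9.85 to 211 CPM, with 7142 of its 8306 counts in GB IL-25- 2. Cd68 ranged there from 15.9 to 33.1 CPM and Fcgr1 was at 0. Single markers went both ways. Csf1r averaged 8.44 CPM in GB IL-25- and 0.0187 CPM in GB IL-25+ cells, but Adgre1 averaged 0.0886 and 2.09 CPM. Of 6 tested myeloid markers, 1 was called lower in GB IL-25+ than in GB IL-25- cells and 5 did not pass. The part of myeloid cells in the levels of Tmem176a and Tmem176b was not tested. Per kilobase, Tmem176a stood to Tmem176b as 1.08 ± 0.0481 in SI IL-25+, 1.16 ± 0.124 in GB IL-25+ and 0.516 ± 0.0748 in SI IL-25- libraries (SD, n = 3). In GB IL-25- 1 to 3 this ratio was 0.726, 0.727 and 1.67.

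**Figure D3:**
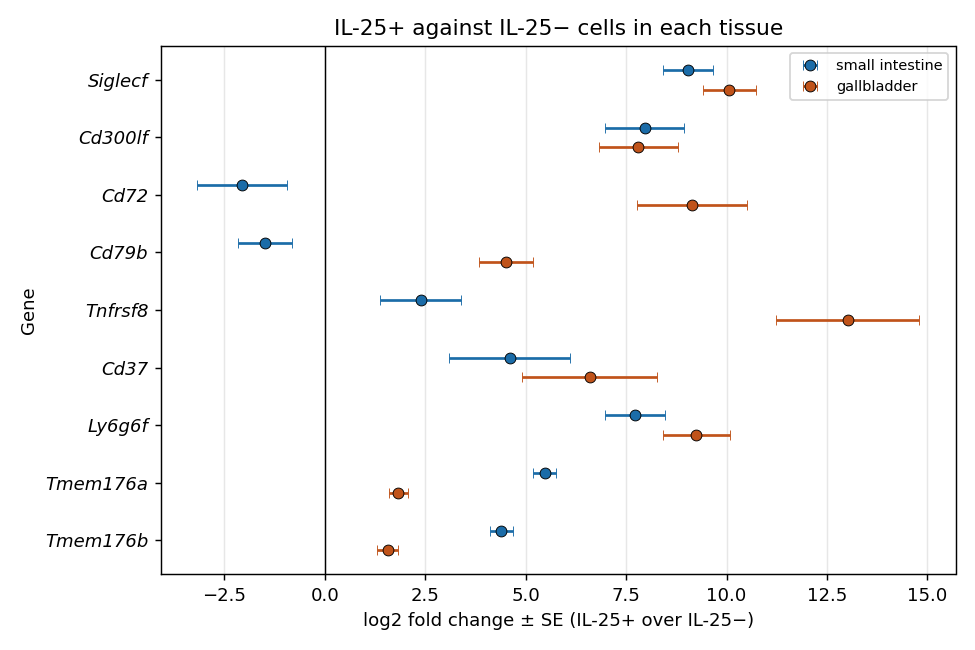
Log2 difference between IL-25+ and IL-25- cells of each organ, with bars of 1 SE from the fit over 12 libraries. Cd72 and Cd79b lie left of 0 in the small intestine and right of it in the gallbladder, Tmem176a and Tmem176b are smaller in the gallbladder, and the gallbladder point of Tnfrsf8 was fitted against a group without counts.

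Over the 9 genes, 2 were called higher and 3 lower in GB IL-25+ than in SI IL-25+ cells, while 10.5% of all tested genes were called higher, 13.1% lower and 23.7% in either direction. The groups did not overlap for 8 of the 9, all but Cd37, and the median log2 difference was -1.10 against -0.09 for all genes. Between IL-25- cells 2 were higher and 3 lower, beside 13% and 11.7% of all genes, 24.6% together. For 4 of the 9 genes these groups did not overlap, and the medians were -2.62 and -0.03. The share of all genes without overlap was not computed, so nothing is read from either count of genes without overlap. The genes that did not pass were Cd300lf at -2.09 ± 0.78 (adjusted p = 0.0789), Cd72 at -3.23 ± 1.15 (0.0603), Cd79b at 1.17 ± 0.62 (0.193) and Cd37 at -2.62 ± 1.49 (0.227). Cd300lf passed with DESeq2 (adjusted p = 0.0115), without SI IL-25- 3 (0.0483) and without GB IL-25- 1 (-3.23, 0.0111), and was -0.78 without SI IL-25- 2. Cd72 passed with DESeq2 (adjusted p = 0.0138), with the stricter filter (0.049) and without SI IL-25+ 2, SI IL-25+ 3, SI IL-25- 3 or GB IL-25- 1 (0.0241 to 0.0443), and was -5.57 without the last of these and -2.53 without SI IL-25- 1. Without SI IL-25- 3 the value of Cd79b was 2.37 and passed (adjusted p = 0.0141), and that of Cd37 turned to 3.84. The difference between the 2 gate differences passed for 5 of the 9, namely Cd72, Cd79b and Tnfrsf8 with larger values in the gallbladder and Tmem176a and Tmem176b with smaller ones, and for 9.23% of all genes (3.63% larger, 5.6% smaller). Of the latter calls 39.3% were larger in the gallbladder, against 51.2% with RLE size factors or DESeq2. The same 5 passed in each of 18 alternatives. For Siglecf it was 1.02 ± 0.65 (adjusted p = 0.391), for Cd300lf -0.17 ± 1.06 (adjusted p = 0.962), for Cd37 1.99 ± 1.91 (adjusted p = 0.601) and for Ly6g6f 1.53 ± 0.94 (adjusted p = 0.369). Their intervals of 2 SE ran from -0.28 to 2.32, from -2.29 to 1.96, from -1.83 to 5.81 and from -0.35 to 3.41. These tests reuse the libraries in which the genes were found, and the comparisons share groups with each other.

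**Figure D4:**
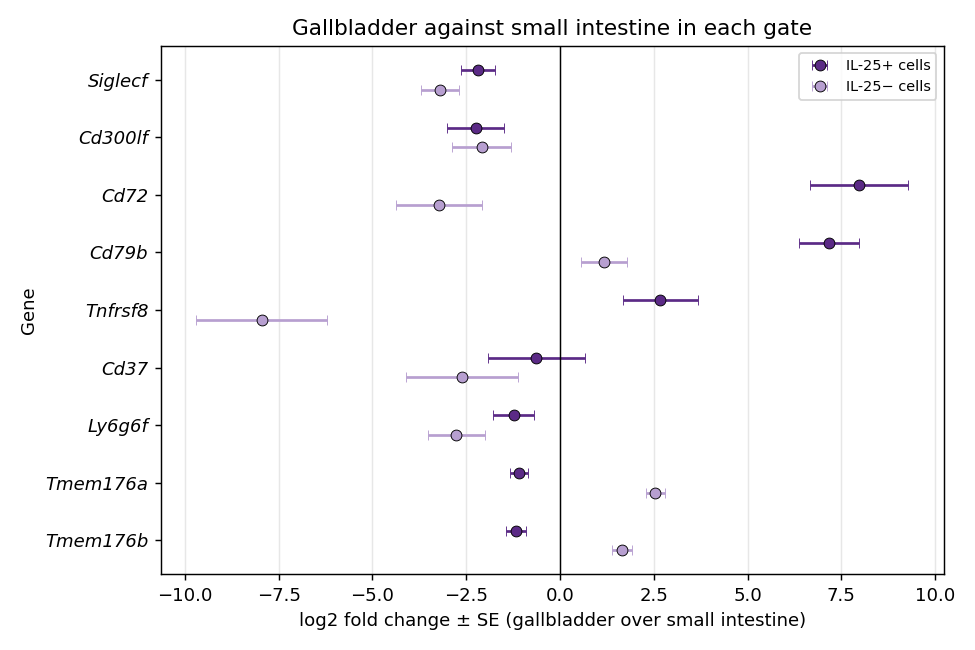
Log2 difference between gallbladder and small intestine in IL-25+ and in IL-25- cells, with bars of 1 SE. Cd72 (7.97) and Cd79b (7.17) lie far right of 0 in IL-25+ cells, and Tmem176a and Tmem176b lie left of 0 in IL-25+ and right of 0 in IL-25- cells.

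Relatives of the lectin and immunoglobulin-type receptors were mostly at or below the filter on low counts. Of 8 other Siglec genes 3 were tested. Mag, a Siglec of myelin, was at least 508-fold higher in GB IL-25+ than in GB IL-25- cells (adjusted p = 0.00132), from 1105 counts summed over the group against 0 counts and the same floor. Its mean was 10.6 ± 7.27 CPM in GB IL-25+, and its log2 difference was 10.80 without GB IL-25+ 3, against 11.51. Mag was also called higher in SI IL-25+ cells, at 4.34 CPM against 0.316 CPM, a call lost in 12 of 19 alternatives. Of 7 other Cd300 genes only Cd300a, a second inhibitory member, was tested, and it was higher in SI IL-25+ cells by 7.42 ± 1.47 (adjusted p = 0.00235), at 2.21 ± 1.15 CPM against 0.00846 ± 0.0147 CPM. Without SI IL-25- 3 this value was 9.21. Cd300a was also called higher in GB IL-25+ cells, at 3.18 ± 3.21 CPM against 0.320 ± 0.159 CPM, a call lost in 15 of 18 alternatives. Of 9 tested receptors with inhibitory motifs outside both families, 1 passed in the small intestine and 0 in the gallbladder. That receptor, Pilra, rose by 3.81 ± 0.73 in the small intestine (adjusted p = 0.00192), or 3.10 without SI IL-25+ 3. In the gallbladder it stood at 30.1 ± 19.5 CPM inside and 29.5 ± 8.16 CPM outside the IL-25+ gate, a difference of 0.03 ± 0.61 (adjusted p = 0.979). Among 4 tested genes of the MS4A family, Ms4a8a was higher in SI IL-25+ cells by 2.40 ± 0.38 (adjusted p = 0.000516), at 672 ± 69.6 CPM. It was also called higher in GB IL-25+ cells, by 0.79 to 1.76 over the alternatives, a call lost in 14 of 19 of them.

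Of 13 tested genes of signalling proteins that act directly behind such receptors, 6 were higher and 0 lower in IL-25+ cells of the small intestine, with a median log2 difference of 0.05, and 6 were higher and 2 lower in the gallbladder, with a median of 0.41. Ptpn6 rose by 6.44 ± 0.23 in the small intestine (adjusted p = 3.57e-09) and by 5.48 ± 0.22 in the gallbladder (adjusted p = 2.61e-08). Vav1, a guanine nucleotide exchange factor of blood cells, rose by 7.34 ± 0.47 (adjusted p = 2.72e-07) and 8.12 ± 0.48 (adjusted p = 1.94e-07). Plcg2, a phospholipase that acts downstream of immune receptors, rose by 5.27 ± 0.43 (adjusted p = 2.43e-06) and 5.62 ± 0.44 (adjusted p = 1.79e-06). In IL-25+ cells their levels were 1140.3 ± 230 and 563 ± 70.8 CPM for Ptpn6, 2009 ± 302 and 1246 ± 131 CPM for Vav1 and 893 ± 136 and 730.2 ± 27.6 CPM for Plcg2, in the small intestine and the gallbladder.

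The genes most like each member over the 12 libraries were found by the root mean square difference of log2 CPM after centring each gene, among 10237 genes with at least 10 CPM in their highest group. Siglecf was nearest to Smpx (0.92), Cd300lf to the adaptor gene Sh2d6 (0.65) and to Ptprc, the phosphatase CD45 (0.70), and Ly6g6f to Vav1 (0.60) and Ptprc (0.69). Cd72 was nearest to Ntrk2 (0.90), a neurotrophin receptor gene, and Adamts7 (1.10), and Cd79b to the ephrin receptor gene Epha7 (1.07) and the cholesterol transporter gene Abca1 (1.12). Tnfrsf8 was nearest to Mag (0.95) and to the adenylate cyclase gene Adcy4 (1.25), and Cd37 to Tmem74b (0.91) and Slc41a3 (1.04). Tmem176a was nearest to Plk2 (0.46) and Runx1 (0.50), and Tmem176b to Hsf2 (0.40) and the glucose transporter gene Slc2a1 (0.44). Ntrk2 averaged 20.0 CPM in GB IL-25+ and at most 0.350 CPM in the other groups. Among the 9 genes themselves the closest pairs were Tmem176a and Tmem176b at 0.56 and Cd300lf and Ly6g6f at 0.60. Cd72 and Cd79b differed by 2.32.

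Of the 9 genes, 8 had at least 1 promoter window in the RefSeq table (GRCm38.p6), which runs from 250 bases before to 50 bases after the annotated start. Tmem176a and Tmem176b had more than 1. The octamer ATGCAAAT, the motif of the POU factor family to which the tuft regulator Pou2f3 belongs, was searched on both strands. It was found for 0 of 8 genes and in 1.74% of 32851 windows of that length. The letters AGAGGAAG, or CTTCCTCT on the other strand, a form of the motif bound by the leukocyte factor PU.1, were found for 4 of 8 genes, Cd300lf, Cd72, Cd37 and Ly6g6f, and in 4.55% of all windows. A gene was scored if any of its windows matched, so shares of genes and of windows are in unlike units. This motif was chosen after the sequences had been seen, and a match is a description of letters, not of a bound site. The 3 windows with the match closest to the start are shown over the 100 bases before it, on the gene's own strand, 5′ to 3′, with the match in capitals.
Cd300lf, chr11:115133993-115134092, minus strand: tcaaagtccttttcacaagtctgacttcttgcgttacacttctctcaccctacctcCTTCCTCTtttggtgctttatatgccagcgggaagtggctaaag
Cd72, chr4:43454627-43454726, minus strand: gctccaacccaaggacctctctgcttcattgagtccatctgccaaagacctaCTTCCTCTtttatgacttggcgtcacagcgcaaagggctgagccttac
Cd37, chr7:45238840-45238939, minus strand: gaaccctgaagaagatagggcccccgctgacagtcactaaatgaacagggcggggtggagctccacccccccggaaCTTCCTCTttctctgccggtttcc
The capitals begin 44, 48 and 24 bases before the start. In IL-25+ cells these 3 genes do not share a pattern across the organs, since Cd72 was higher in the gallbladder, the difference of Cd300lf was -2.25 and that of Cd37 -0.63 on the log2 scale.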

How the data were processed

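RNA was measured in 12 libraries, 4 groups of 3 by organ and sort gate as labelled. Per the labels' protocols, cDNA was prepared for sequencing with the Nextera XT kit, without strand information, and read from 1 end over 50 bp. The deposited values are whole-number read counts per Ensembl gene. The submitters' processing notes name STAR 2.7.2b, DESeq2 1.26 and GRCm38, while the counting tool, strand setting and annotation are not given in the sources used here. GENCODE M21 gave symbols and positions for 42548 of 43432 genes, and the other 884 held at most 0.119% of any library. A further 11 columns match no sample and were not used.

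Counts were fitted with edgeR 4.0.16 (R 4.3.3): filterByExpr with a minimum count of 10 (16636 genes kept), TMM scaling, a robust quasi-likelihood fit of the 4 groups over 12 libraries, F tests and Benjamini-Hochberg adjustment over all genes, with a threshold of 0.05. SE is the log2 difference divided by the square root of F. Folds against a group at 0 use counts summed over each group and a floor of 3 counts over the group, which covers counting error only. CPM per kb divides by the exon union. The procedure was tested on simulated counts. Figures used matplotlib 3.10.9.

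The 9 genes, the 15 absorptive cell genes, the 10 gene lists and 10 marker lists were chosen with earlier results of these data known. By rule, up to 4 list genes with the lowest adjusted p per gate comparison, if called and if the higher group reached 1 CPM, could be named. The 29 genes picked this way had 48 gate calls in the main setting, counted in either organ. The 31 calls that held in every alternative were eligible for description. Also described were Nfkb1, calls given with the number of alternatives that lost them, and genes taken for their position or likeness. Lilrb4a, on the list of receptors with inhibitory motifs, was not analysed here, and some genes that the lists or the likeness rule gave are not reported here. Alternatives were RLE size factors, DESeq2 1.42.0, omitting the filter, requiring 5 CPM in 3 libraries, blocking on replicate number, fitting just the 6 libraries compared, and dropping every library in turn. Dropping SI IL-25- 3 together with GB IL-25- 1 was chosen after seeing the data.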

Additional observations from a re-analysis of the deposited data

Results flagged for a closer look

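The gate difference, IL-25+ against IL-25-, was compared between organs by the test of the difference itself, gallbladder minus small intestine on the log2 scale. Of all tested genes 9.23% passed. Of the 9 receptor genes 5 passed: Cd72 (11.20), Cd79b (6.0), Tnfrsf8 (10.63, fitted against a group at 0), Tmem176a (-3.64) and Tmem176b (-2.82). The 9 were chosen by gate differences in these same libraries, so for them this test is not independent of the choice. Of the list genes named by the rule it passed for 8. Those that held in every alternative were Blnk (1.38 ± 0.27, adjusted p = 0.00674), Tnfrsf10b (-4.76 ± 0.58, adjusted p = 0.000285), Tspan1 (1.74 ± 0.33, adjusted p = 0.00451), Tspan13 (3.19 ± 0.53, adjusted p = 0.00215) and Tspan8 (-2.48 ± 0.32, adjusted p = 0.00041). Cd81 (-0.82 ± 0.22, adjusted p = 0.0337), Ptpn6 (-0.96 ± 0.25, adjusted p = 0.0326) and Pilra (-3.78 ± 0.94, adjusted p = 0.0228) lost their calls in 13, 11 and 3 of 18 alternatives. Groups of 3 libraries are too small for a test of single outlying libraries, and none was run.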

How the results depend on the processing

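The number of the 9 genes called was the same or within 1.5 times in each alternative for 4 of the 5 comparisons: 9 in all for the gallbladder gate, 5 to 8 for the small intestinal gate, 5 to 7 for IL-25+ cells between organs and 5 in all for the difference of gate differences. Between IL-25- cells it was 5, with 3 in a fit of those 6 libraries alone, where 5 genes were tested, 8 without SI IL-25- 3 and GB IL-25- 1 together and 4 to 8 when 1 library was left out. Leaving out 1 library gave 9 for the gallbladder gate, 5 to 7 for the small intestinal gate, 5 to 7 for IL-25+ cells and 5 for the difference. In the main setting 26.8% of all genes were called for the gallbladder gate and 27.2% for the small intestinal gate. The shares were 23.7% for IL-25+ cells, 24.6% for IL-25- cells and 9.23% for the difference. Since the gate contrast chose the genes, nothing is read from the gate counts. Of 841 values of single receptor genes 791 kept direction and side of the threshold, 9 lost and 31 gained a call, and 10 turned direction, none of which was called in the main setting. Between IL-25- cells Cd37 turned from -2.62 to 3.84 without SI IL-25- 3 and to 2.26 without both libraries. For the difference of gate differences Cd37 turned from 1.99 to -4.44 and -2.86 in these settings. Cd300lf turned there from -0.17 to 0.06 with RLE size factors, 0.10 with DESeq2, 0.17 without SI IL-25- 1, 0.25 without SI IL-25- 3, 1.01 without GB IL-25- 1 and 1.43 without both libraries. With 1 library left out, these values ran from -4.03 to 3.84 for Cd37 between IL-25- cells, and from -1.47 to 1.01 for Cd300lf and -4.44 to 3.42 for Cd37 in the difference. The cause was not tested, except that the fit of 6 libraries tests fewer genes. Over all genes the difference of gate differences was called for 1536 genes, and for 2644 with DESeq2. RLE size factors moved the median of all genes by -0.12 in the small intestinal gate, 0.11 between IL-25+ cells and 0.16 in the difference. Of 378 list counts, 95 moved by over 1.5 times. Low counts limit Cd37, Cd72 and Tnfrsf8 outside the groups where they were high. They also limit Cd79b in the small intestine, with 14 counts over SI IL-25+ and 58 over SI IL-25-, and Ly6g6f in GB IL-25-, with 14 counts.

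Replicate numbers gave no clear pairing of the libraries: deviations of same-numbered libraries correlated at -0.052 to 0.162 over 18 pairs. Differently numbered libraries correlated at -0.179 to 0.096. The same-numbered gallbladder pairs 1 to 3 stood at 0.094, 0.019 and 0.162. Whether same-numbered libraries share mice cannot be told from these values. With the replicate number as a block, 6, 9, 5, 5 and 5 of the 9 genes were called (small intestinal gate, gallbladder gate, IL-25+ cells, IL-25- cells and the difference), and 4254, 4074, 3540, 3796 and 1340 of all genes, against 4529, 4456, 3938, 4099 and 1536 without it.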

Other observations

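The 9 genes together summed to 6630.3, 8073 and 8085 CPM in SI IL-25+ 1 to 3, to 2454, 2598 and 2133 CPM in GB IL-25+ 1 to 3, to 303, 374 and 363 CPM in GB IL-25- 1 to 3 and to 119.7, 87.7 and 78.8 CPM in SI IL-25- 1 to 3. In GB IL-25- 1, the library that held 48 Il25 counts and intestinal transcripts, Cd300lf had 255 counts, against 34 and 16 in the other GB IL-25- libraries, while Siglecf had 22, against 33 and 21.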
